A study of Homo sapiens with 4 samples.

Results

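The genes described here encode the proteins of the cytosolic ribosome. They were chosen by name from the FPKM table of all genes: RPL and RPS symbols with a number, with or without a closing A, X or L, together with RPLP0, RPLP1, RPLP2 and RPSA, on the assembled chromosomes only. The rule found 82 of the 24934 rows of the table, which stand for 81 genes, because 1 gene was listed on 2 rows with identical values and was counted once. Of the 81 genes, 49 belong to the large subunit (RPL, with the stalk genes) and 32 to the small subunit (RPS, with RPSA). In the table, 79 of them reached 1 FPKM in a library, 47 RPL and 32 RPS genes. The names of 5 further rows on alternate contigs matched the pattern, and all of these were listed at 0 in every library.

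The libraries were made from HEK-293, an established human embryonic kidney cell line, and nothing in the labels sets the cultures apart but the siRNA. Each of 3 siRNAs was transfected at 10 nM with a lipid reagent, and RNA was taken after 48 h: si4 and si5 were directed against ZSCAN5A, si1 was directed against ZSCAN5B, and a scrambled siRNA served as the control. Both encode SCAN domain zinc finger proteins. ZSCAN5B has a counterpart in other mammals and ZSCAN5A arose from it by duplication in primates. The study asked which genes change when either is depleted. There was 1 library for each siRNA and 1 control library, so the differences below could not be checked against replicates, and the comparisons rest on no test. The viral genes that define the line were not analysed here, so the cell line label was not checked against them.

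Ribosomal proteins are made in equal numbers, because every ribosome takes nearly all of them once, and cells that divide fast devote much of their mRNA to them. Most of their mRNAs begin with a C followed by an unbroken run of pyrimidines, the terminal oligopyrimidine (TOP) element, through which the mTOR pathway and the RNA-binding protein LARP1 set their translation together. The mRNAs are short and stable, many of their introns carry snoRNAs that guide the modification of ribosomal RNA, and their cDNAs have been copied back into the genome as processed pseudogenes many times. Loss of 1 copy of several of these genes causes Diamond-Blackfan anaemia.

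The start-site sequences show the element that most of these genes share. RefSeq start sites (GRCh38.p14) were available for 63 of the 79 genes. In 46 of them, 73.0%, the annotated first base was a C followed by at least 4 more bases that were all C or T, against 5.14% of 27305 genes in the same table. When a run was accepted up to 5 bases to either side of the annotated start, 53 of 63 genes had one, 84.1%, against 25.2% of all genes. The 8 genes printed here are those on which the results below turn, each with 6 bases before the start and 20 from it, and the pyrimidine run is in capitals.
RPLP0 (chr12:120201092-120201117, minus strand): cgaggcCCTTCTCTCgccaggcgtcc
RPLP1 (chr15:69452812-69452837, plus strand): cgagagCCCCTTTCCTCagctgccgc
RPLP2 (chr11:809961-809986, plus strand): cgccttCCTTTTCCTCCCTgtcgcca
RPL34 (chr4:108620570-108620595, plus strand): tttcttCCTCTTCCggggacgttgtc
RPL13A (chr19:49487602-49487627, plus strand): ctcctcCTTTTCCaagcggctgccga
RPL28 (chr19:55385926-55385951, plus strand): gccttcCTCTTTCCgtctcaggtcgc
RPS6 (chr9:19380217-19380242, minus strand): ttggccCTCTTTTCCgtggcgcctcg
RPS15 (chr19:1438390-1438415, plus strand): gcggaccaaagcgatctcttctgagg
RPS15 had no such run at its annotated start or within 5 bases of it. A stretch of the same kind lies further on in its printed bases, and the first base of its mRNA was not checked. The other genes shown each had a run that began at the annotated first base, including the genes whose levels moved least.

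These genes made up the most abundant part of the mRNA pool. In the control library they took 17 of the 20 highest FPKM values in the table, 45 of the 50 highest and 64 of the 100 highest. Their median FPKM was 1657 in the control library, against 2023 and 2027 in the si4 and si5 libraries and 1920.1 in the si1 library. The highest in the control was RPS18, a protein of the small subunit head, at 4834 FPKM, followed by RPL39 at 4315, RPS4X at 4245, RPL41 at 4207 and RPS2 at 4083. RPL39 and RPL41 are among the smallest proteins of the ribosome. FPKM is divided by transcript length, so levels of different genes can be set side by side only where the length used fits the mRNA. They cannot be where reads are split between near-identical copies. The transcript lengths behind the deposited values were not checked.

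Paralogues and a gene with a competing row were among the lowest. RPL39L, the paralogue of RPL39 known from testis, had 25.8 FPKM in the control. RPS27L, the p53-responsive paralogue of RPS27, had 57.0 and RPL21 had 71.9. RPL27A, which belongs to neither kind, had 140.0, and its annotated transcript is long, at 4535 bases. RPL3L, the muscle paralogue of RPL3, was listed at 0.0775 FPKM in the control and at 0.0592, 0.0502 and 0.0254 in the libraries of si4, si5 and si1. The smallest whole numbers of fragments in these proportions are 6, 5, 6 and 2, so that the ratio of si1 to the control was 0.328 with an exact 95% interval of 0.0324 to 1.83, which covers counting error only. RPL10L, an intronless copy of RPL10, was listed at 0 in all 4 libraries. The other 79 genes lay between 25.8 and 4834 FPKM in the control.

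**Figure D1:**
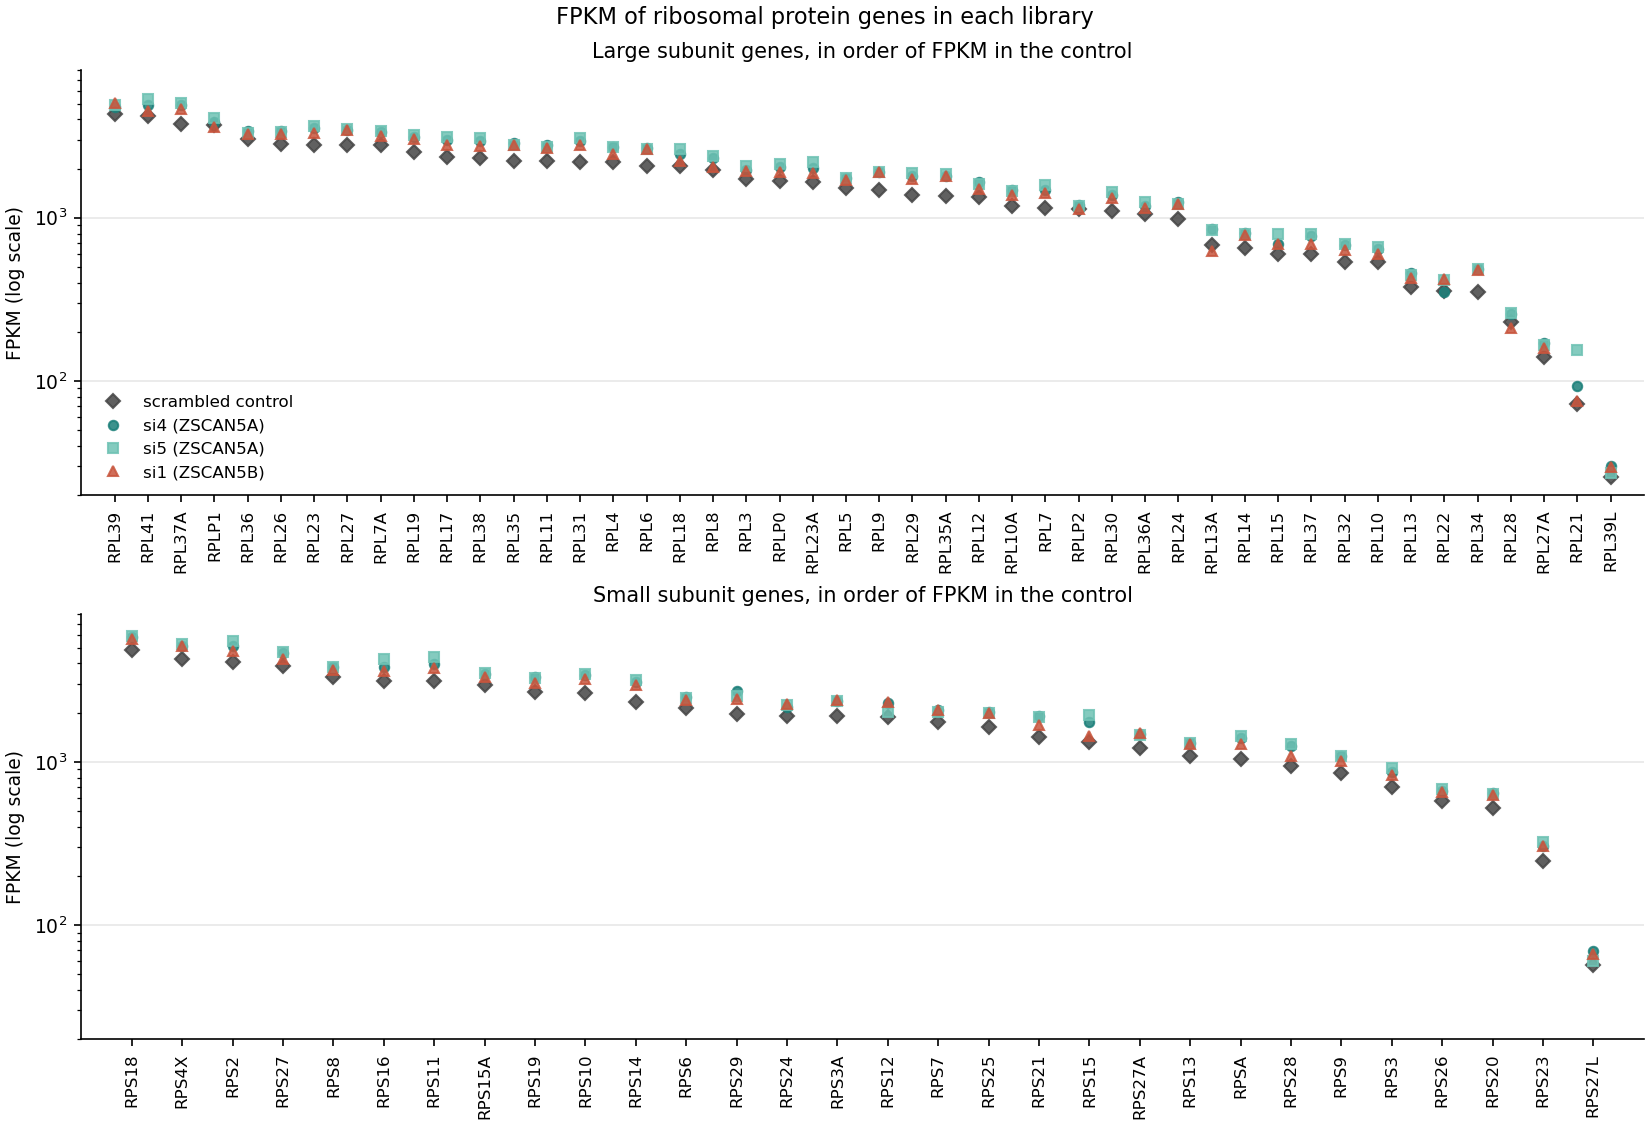
FPKM on a log scale for 76 of the 79 ribosomal protein genes of 1 FPKM or more, large subunit above and small subunit below, in order of the control; each mark is 1 library. The control mark lies below the marks of both ZSCAN5A siRNAs for all genes shown but RPL22, where si4 was slightly lower (352 against 354 FPKM).

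Targeted genes were checked first. ZSCAN5A had 2.42 FPKM in the control, and 0.730 and 0.713 FPKM under si4 and si5, 30.2% and 29.5% of the control; it had 2.53 under si1. ZSCAN5B was listed at 0.0903 FPKM in the control, 0.0331 and 0.0663 under si4 and si5, and 0.0948 under si1. The smallest whole numbers of fragments in these proportions are 15, 6, 17 and 16, so that the ratio of si1 to the control was 1.05 with an exact 95% interval of 0.486 to 2.28, which covers counting error only. Counted likewise, the ratio was 0.366 (0.116 to 0.999) for si4 and 0.734 (0.345 to 1.58) for si5. The FPKM values do not show ZSCAN5B lower under si1, so the third library is called the library labelled ZSCAN5B knockdown. The study reports lower ZSCAN5B RNA and protein with si1 by qRT-PCR and Western blot, which were not examined here. Estimated from the steps of low FPKM values, sequencing depth relative to the control was 1.09 for si4, 1.54 for si5 and 1.02 for si1. In si5, EEF1A1 and HNRNPK were listed at 0 although they had 3614 and 312 FPKM in the control, so an exact 0 in this table can be a failed estimate; no ribosomal protein gene of 1 FPKM or more was listed at 0.

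With the ZSCAN5A siRNAs every measured ribosomal protein gene had a higher FPKM than in the control. The mean of both siRNAs exceeded the control for 79 of 79 genes, where 46.7% of all 12992 genes tested were higher. The median log2 ratio of the 79 genes was 0.31, a 1.24-fold difference, with quartiles of 0.25 and 0.38, while the median of all genes was -0.02. It was 0.30 with si4 alone and 0.31 with si5 alone, higher in 78 and 79 of the 79 genes. The difference was broad and small: 56 genes were more than 1.2-fold higher, against 9.14% of all genes, and 1 gene, RPL21, was past 1.5-fold, against 3.79% of all genes in either direction.

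The library labelled ZSCAN5B knockdown gave a smaller difference of the same sign. In it 75 of the 79 genes exceeded the control, where 48.5% of all genes did, with a median log2 ratio of 0.24 (1.18-fold; all genes -0.01). More than 1.2-fold higher were 25 genes, against 11.1% of all genes, and 0 genes were past 1.5-fold in either direction, against 4.01%. In all 3 siRNA libraries at once 74 of the 79 genes exceeded the control, against 30.1% of all genes. The 4 genes RPL13A, RPL28, RPLP1 and RPLP2 were above it under si4 and si5 and below it under si1, 5.06% of the 79 genes, where 4.58% of all genes had that pattern. These comparisons share the 1 control library, so a low reading of these genes in the control would enter each of them alike.

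Set directly against the mean of si4 and si5, which does not use the control, the library labelled ZSCAN5B knockdown was lower for 70 of the 79 genes, where 46.2% of all genes were lower. The median log2 ratio was -0.08 for these genes and 0.01 for all genes. The 76 genes for proteins of the mitochondrial ribosome, a separate particle, had a median of 0.04 in the same comparison, with 54 higher. In bulk RNA, a different makeup of the cells and a different amount of RNA per cell cannot be told apart.

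**Figure D2:**
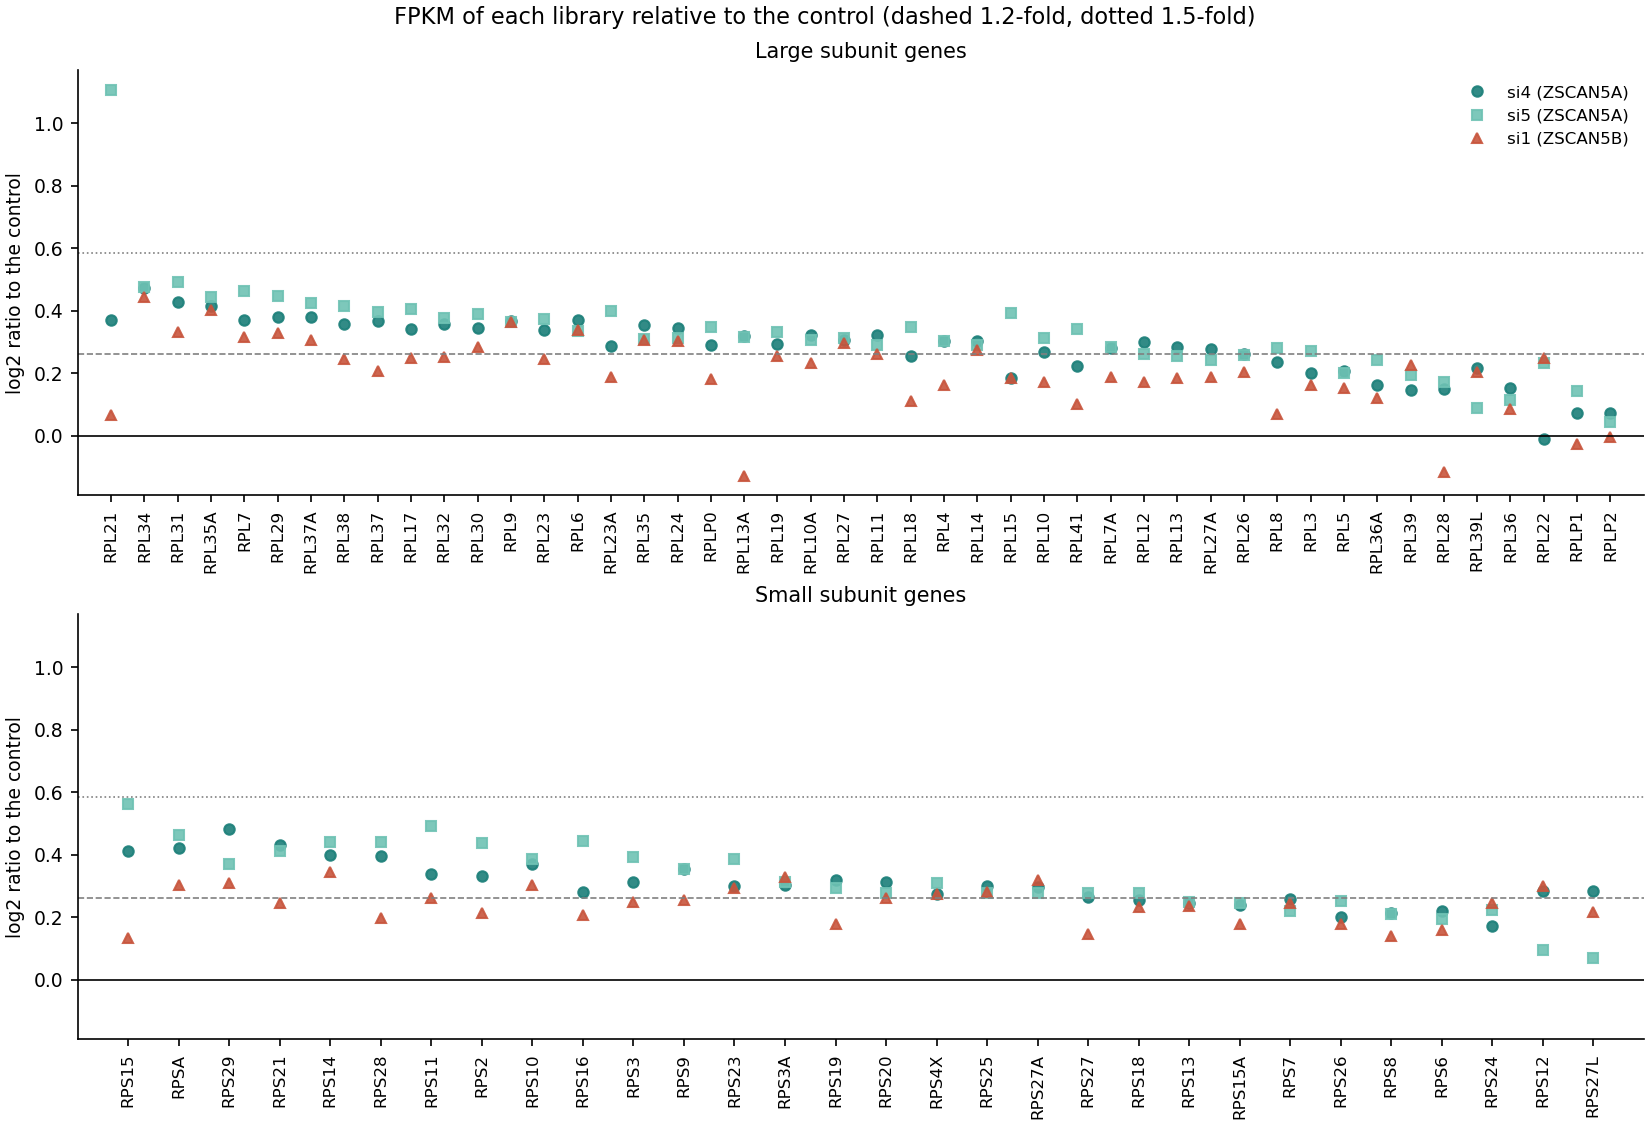
Log2 ratio of FPKM to the control for the same 76 ribosomal protein genes with si4, si5 and si1, large subunit above and small subunit below, in order of the mean of si4 and si5; dashed and dotted lines mark 1.2-fold and 1.5-fold. Nearly all marks lie above 0, si1 marks lie mostly below those of si4 and si5, RPL21 with si5 stands alone at 1.11, and RPL13A and RPL28 are below 0 only with si1.

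The share of these genes in the summed FPKM was higher in every siRNA library. Ribosomal protein genes held 29.2% of the summed FPKM of the control library, 32.0% of that of si4, 33.0% of that of si5 and 31.0% of that of si1. Their summed FPKM was 1.23, 1.25 and 1.17 times the control for si4, si5 and si1, and that of all other rows was 1.07, 1.05 and 1.07 times. The missing value of EEF1A1 lowers the sum of si5 alone.

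The size of the ratio depends on how libraries are scaled. When each FPKM was divided by the library's sum, all genes moved down, by 0.15 on the log2 scale for si4 and si5 and by 0.14 for si1. On that scale the ribosomal protein genes had a median log2 ratio of 0.15 (75 of 79 higher) with si4 and si5. With si1 it was 0.10 (68 of 79 higher). The medians of all genes were -0.17 and -0.15, with 21.4% and 26.1% of all genes higher.

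**Figure D3:**
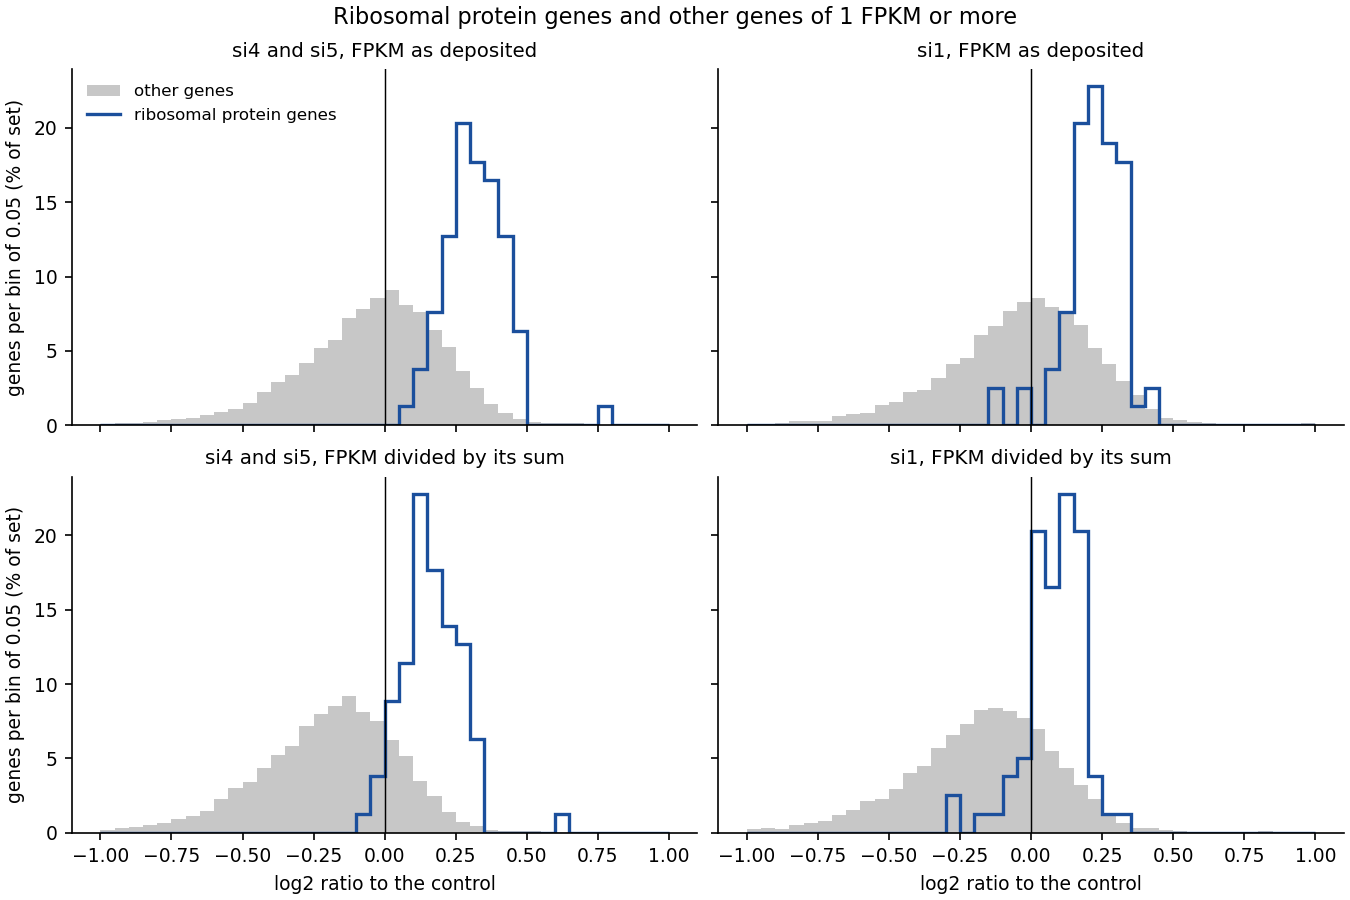
Share of genes in each bin of log2 ratio to the control, for the 79 ribosomal protein genes (line) and the other genes of 1 FPKM or more (grey), with si4 and si5 on the left and si1 on the right, FPKM as deposited above and divided by its sum below. The ribosomal protein genes form a narrow peak to the right of the other genes in each panel, at a median of 0.31 (left) and 0.24 (right) above and 0.15 and 0.10 below.

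Large and small subunit genes had similar ratios. Under the ZSCAN5A siRNAs the median log2 ratio was 0.31 for 47 RPL genes and 0.30 for 32 RPS genes, with SDs over genes of 0.12 and 0.09. Under si1 it was 0.21 for RPL and 0.25 for RPS genes, with SDs of 0.12 and 0.06, and the 4 genes below the control were all RPL genes. The summed FPKM of RPL over that of RPS genes was 1.22 in the control library and 1.2, 1.21 and 1.19 in those of si4, si5 and si1. RPL genes held 54.9% of the members' summed FPKM in the control and between 54.4% and 54.7% in the siRNA libraries. Genes of a subunit are not replicates, so the difference between subunits was not tested.

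Some stalk genes had low ratios within the large subunit. RPLP0, RPLP1 and RPLP2 form the flexible stalk that calls in the elongation factors, with RPLP0 at its base and pairs of RPLP1 and RPLP2 on it. RPLP1 had 3672 FPKM in the control, 3860.0 and 4058 under si4 and si5, and 3607 under si1. RPLP2 had 1138 FPKM in the control, 1199 and 1173 under si4 and si5, and 1137 under si1. These had the lowest log2 ratios of all 79 genes with si4 and si5, 0.11 for RPLP1 and 0.06 for RPLP2, and lay at -0.03 and -0.002 with si1. Divided by the sum, both were below the control also with si4 and si5, at -0.04 and -0.09. RPLP0 had 2048, 2129.7 and 1901 FPKM with si4, si5 and si1 against 1675 in the control, which gave 0.32 for the ZSCAN5A siRNAs and 0.18 for si1 on the log2 scale, where the family had medians of 0.31 and 0.24. RPLP1 and RPLP2, like RPLP0, began with a TOP run at the annotated start, as printed above. Whether the run bears on their ratios was not tested.

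RPL5 and RPL11 enter the ribosome together with the smallest ribosomal RNA and, when free, bind MDM2 and so link ribosome assembly to p53. RPL5 had 1521 FPKM in the control and 1756, 1748 and 1693 under si4, si5 and si1, log2 ratios of 0.20 for the ZSCAN5A siRNAs and 0.15 for si1. RPL11 had 2216 FPKM in the control and 2772, 2708 and 2654 under the siRNAs, ratios of 0.31 and 0.26. In both genes the 3 siRNA libraries lay close together and apart from the control.

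RPL34 had one of the highest ratios in the large subunit. RPL34 had 351 FPKM in the control and 487, 488 and 478 under si4, si5 and si1, ratios of 0.47 and 0.44, the highest value in the library labelled ZSCAN5B knockdown. RPL35A followed in that library with 1794 FPKM against 1359 (0.40), then RPL9 with 1900.2 against 1477 (0.36) and RPL6 with 2629 against 2079 (0.34). For RPL9, RPL6, RPL34 and RPL35A the si1 value lay within 0.03 of that of si4 and si5 together.

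RPL22, RPL36 and the small RPL39 lay towards the other end with si4 and si5 together. With si1 RPL22 (0.25) and RPL39 (0.23) were near the family's median of 0.24. RPL22 was one of the few genes on which si4 and si5 differed: its FPKM was 354 in the control and 352 under si4, but 416 under si5 and 421 under si1. RPL36 had 3396, 3309 and 3242 FPKM against 3055, log2 ratios of 0.13 with the ZSCAN5A siRNAs and 0.09 with si1. RPL39 had 4315 FPKM in the control, 4773 and 4933 under si4 and si5 and 5050.1 under si1, so that si1 was the highest of the libraries. RPL41 went the other way, with 4915, 5334 and 4518 FPKM against 4207, ratios of 0.28 and 0.10.

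In the small subunit the head and the body had similar ratios. The 14 head proteins had a median log2 ratio of 0.33 under si4 and si5 (14 of 14 higher) and 0.26 with si1, and the 17 body proteins had 0.29 (17 of 17 higher) and 0.25. RPS15, which lies on the head near the decoding site, had 1313 FPKM in the control, 1747 and 1939.7 under si4 and si5, and 1441 under si1. Its log2 ratio of 0.49 was the highest of the small subunit with si4 and si5, and its 0.13 with si1 was the lowest of that subunit. RPSA, whose protein is also known as the laminin receptor, had 1403, 1445 and 1293 FPKM against 1047, ratios of 0.44 and 0.30.

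Members best known outside structural work lay within the range of the family. RPS6, the substrate of the S6 kinases that is used as a readout of mTOR activity, had 2138 FPKM in the control and 2490.3, 2444 and 2387 under si4, si5 and si1, ratios of 0.21 and 0.16. RPS19, the first gene linked to Diamond-Blackfan anaemia, had 3326, 3269 and 3019.7 FPKM against 2666, ratios of 0.31 and 0.18. RPS14, the gene of the region lost in the myelodysplastic deletion on chromosome 5, had 3061, 3148 and 2944 FPKM against 2319, and its 0.34 with si1 was the highest of the small subunit there. All 18 listed anaemia genes were higher than the control in both comparisons, with medians of 0.30 and 0.23, against 0.31 and 0.24 for all members.

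The abundant members of the paralogue pairs were above the control in every siRNA library, with log2 ratios under si4 and si5 below the family's median: 0.27 for RPS27, 0.24 for RPL3, 0.29 for RPL10 and 0.17 for RPL39. Under si1 they were 0.15, 0.16, 0.17 and 0.23. RPS27 had 4653, 4691 and 4285 FPKM with si4, si5 and si1 against 3869, RPL3 had 1972, 2070.4 and 1920.1 against 1715, and RPL10 had 641, 662 and 599 against 533. RPS27L had 69.3, 59.8 and 66.2 FPKM against 57.0, and RPL39L had 30.0, 27.5 and 29.7 against 25.8, so that in both minor paralogues si4 was above si5.

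The ZSCAN5A siRNAs gave nearly the same values across the family. The log2 ratio of si5 to si4 was within 0.1 of 0 for 66 of the 79 genes, its median was 0.02, and its SD over genes was 0.11, or 0.07 without RPL21. Beside RPL21 (0.74) and RPL22 (0.24), the genes that differed most were RPS27L (-0.21), RPL15 (0.21) and RPS12 (-0.19). RPL15 had 603 FPKM in the control, 686 under si4 and 791 under si5, and RPS12 had 1877 in the control, 2283 under si4 and 2003 under si5. In the control the fewest fragments, about 1011, were those of RPL39L, and the counting error of the log2 ratio of si4 to the control was at most 0.06. This covers neither the difference between cultures nor the splitting of reads between copies.

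RPL21, the only gene past 1.5-fold, shares its locus with another row of the table. RPL21 lies on chromosome 13 (hg19 chr13:27825692-27830702), and a row named RPL21P28, after one of its pseudogenes, covers the same stretch of sequence. The RPL21 row held 71.9 FPKM in the control library and 93.0, 154.9 and 75.2 in the libraries of si4, si5 and si1, and the RPL21P28 row held 1362, 1597, 1629 and 1629.5 in the same order. The RPL21 row thus had between 4.41% and 8.68% of the sum of both. Added up, the locus had 1434 FPKM in the control and 1689.5, 1784 and 1705 under the siRNAs, log2 ratios of 0.28 for the ZSCAN5A siRNAs and 0.25 for si1, and was not past 1.5-fold. The annotation holds 133 RPL21 pseudogenes, the most of any gene of this family, where the median is 13.

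The same held for RPL13A, the gene lowest in the library labelled ZSCAN5B knockdown. RPL13A is a large subunit protein that also has a part in the silencing of inflammatory mRNAs, and its introns carry 4 snoRNA rows. Its own row (hg19 chr19:49990865-49995564) had 680.0 FPKM in the control, 849 and 846 under si4 and si5 and 622 under si1, log2 ratios of 0.32 and -0.13. A row named RPL13AP5 on the same locus had 3743, 3753 and 3583 FPKM against 3082. The sum of both was 4592, 4599 and 4205 FPKM against 3762, log2 ratios of 0.29 and 0.16, so that the summed locus was above the control with si1 as well. At least 50% of the span of 8 of the 79 genes was covered by another row.

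**Figure D4:**
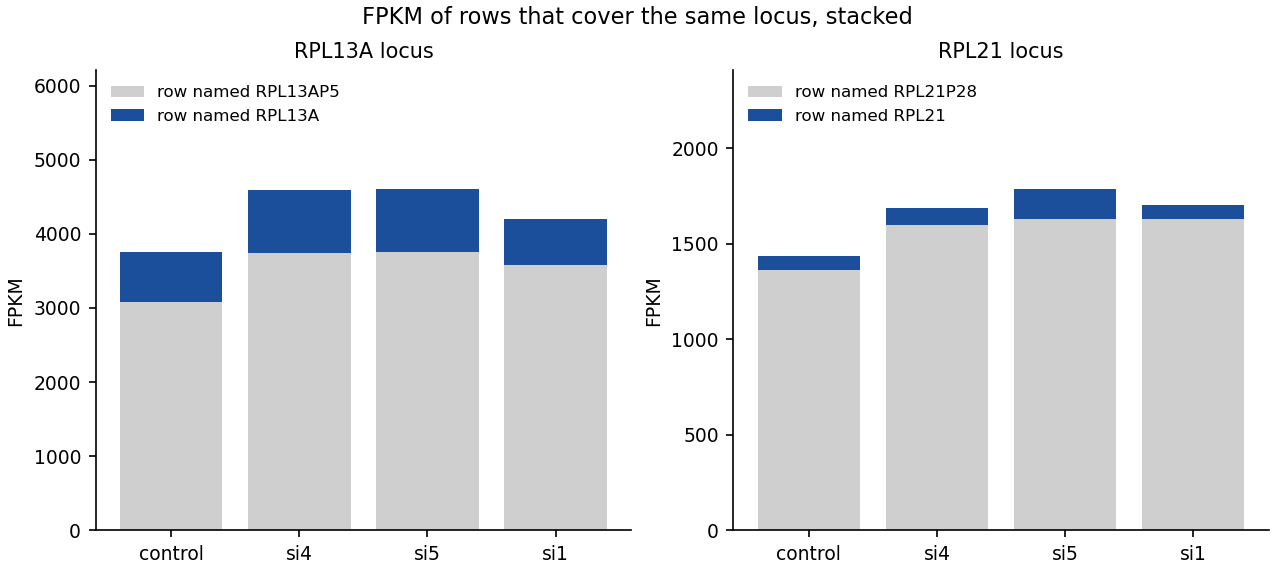
FPKM in each library of the rows that cover the RPL13A locus (left) and the RPL21 locus (right), the gene's own row stacked on the row named after a pseudogene, with bars from 0. The gene's own row is the smaller share of each bar (18.1% for RPL13A and 5.02% for RPL21 in the control), and the summed bars of the 3 siRNA libraries are all above the control.

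RPL28 was another of the 4 genes below the control with si1 alone. That pattern was in 5.06% of the members, near the 4.58% of all genes. RPL28 had 230.4 FPKM in the control, 256 and 259 under si4 and si5, and 213 under si1, log2 ratios of 0.16 and -0.12. No other row covered 50% of its span. The seed of an siRNA, bases 2 to 8 of its guide strand, can lower mRNAs other than its target, so the members were searched for it. The target sequences of the siRNAs are printed with the bases that pair with the seed in capitals, taking the first base of the guide to pair with the last base of the target.
si1: acgtgtgcaataaATCATTTa
si4: cgagaagaggtttACGTGTAa
si5: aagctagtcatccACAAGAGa
The si1 heptamer was in the canonical transcript (GENCODE, GRCh37) of 7 of the 79 genes, 8.86%, against 30.0% of 11200 genes tested. RPL13A, RPL28, RPLP1 and RPLP2 were not among these genes. Whether a seed affected any member was not tested. The si4 heptamer was in 4 members, RPL22, RPL23, RPS23 and RPS27L, against 7.06% of genes tested. The si5 heptamer was in 10 members, 12.7%, against 27.1%, and RPS27L held those of both ZSCAN5A siRNAs. Whole transcripts were searched, and a short transcript has fewer places for a heptamer. The members are short (median canonical length 827 bases), so these shares are not matched for length.

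Genes that work with these proteins but lie outside the naming rule had similar ratios. Ribosomal proteins with other names, among them FAU and GNB2L1 (the ribosomal scaffold protein RACK1), and the paralogues RPL22L1, RPL26L1, RPL7L1 and RPL36AL were all higher than the control in both comparisons (7 of 7), with medians of 0.31 with si4 and si5 and 0.30 with si1. GNB2L1 had 2195, 2173 and 1975 FPKM with si4, si5 and si1 against 1746. FAU, which is made as a fusion to a ubiquitin-like protein, had 651, 619 and 607 FPKM against 492. RPL26L1 had 79.6 FPKM in the control, 93.4 and 86.4 under si4 and si5 and 112.5 under si1, so that si1 was the highest.

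Dedicated chaperones that carry single ribosomal proteins to the assembling subunits had medians of 0.30 and 0.30, with 6 of 7 higher. GRWD1, the chaperone of RPL3, had 36.0, 30.5 and 32.4 FPKM with si4, si5 and si1 against 22.0, at 0.60 on the log2 scale for the ZSCAN5A siRNAs, past 1.5-fold. BCCIP, the chaperone of RPL23, had 80.7, 69.0 and 80.3 FPKM against 52.9, a log2 ratio of 0.60 with si1. HEATR3, which takes part in the import of RPL5, was the one lower than the control, at 12.2, 12.0 and 12.4 FPKM against 14.2.

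Ribosome assembly factors were higher in 31 of 32 cases with si4 and si5 and in 32 of 32 with si1, with medians of 0.22 and 0.25. RRS1, which brings the RPL5 and RPL11 particle into the large subunit, was the highest in both (0.44 and 0.47), and SDAD1 (-0.13 with si4 and si5) and NOP56 (0.01 with si1) were the lowest. The mitochondrial ribosomal proteins had medians of 0.22 and 0.26, with 71 of 76 higher in each. For these the ZSCAN5A siRNAs differed, with 0.26 for si4 and 0.14 for si5, and divided by the sum si5 had a median of -0.006 with 38 higher and 38 lower. Other mRNAs with a TOP element, most of them for translation factors, had medians of 0.17 and 0.12 with 14 of 17 higher in each. PABPC1, which binds poly(A) tails, was lower than the control in both (-0.22 and -0.30), and EIF3E was the highest (0.34 and 0.40). Of that list EEF1A1 was past 1.5-fold with si4 and si5 only through its listing at 0 in si5, and without it the medians were 0.17 and 0.12.

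Genes that regulate ribosomal protein synthesis showed no common direction. Of 21 listed genes, 12 were higher with si4 and si5 and 11 with si1, with medians of 0.05 and 0.02. EIF4EBP2, a repressor of cap-dependent translation, had 19.2, 17.9 and 14.7 FPKM with si4, si5 and si1 against 26.0, log2 ratios of -0.48 and -0.82. TSC1 and TSC2, which hold mTOR in check, had log2 ratios of -0.35 and -0.34 with si4 and si5. In the same comparison MTOR itself (-0.17) and RPTOR (-0.12) were lower too. AKT1S1 (0.13) and EIF4EBP1 (0.17) were higher, the latter lower with si1 (-0.15). Whether mTOR activity differed was not tested. LARP1, the repressor of TOP mRNAs, had 38.6, 35.9 and 37.8 FPKM against 44.8. GABPA, an ETS factor that binds ribosomal protein promoters, had 23.3, 23.0 and 23.3 FPKM against 18.0, the highest log2 ratio of the list in both comparisons (0.37 and 0.38). MYC had 20.4, 16.8 and 25.2 FPKM against 19.5, lower than the control with si5 alone.

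Promoter features were then set beside the ratios, without a test. Under the ZSCAN5A siRNAs the median was 0.30 in the 46 genes with a pyrimidine run at the annotated start and 0.31 in the 17 without, and under si1 it was 0.24 and 0.25. Some of the 17 had a run within 5 bases of that start. Under that wider rule the medians were 0.30 in 53 genes and 0.33 in 10, and 0.24 and 0.26 under si1. Both splits rest on annotated starts, so they may not separate genes with and without the element. Promoters of 300 bases (250 before the start) were also searched on both strands for the core of ETS sites, CCGGAA, which was in 57.1% of the members matched and 20.1% of all genes. The letters GGGCGG of the GC box were in 58.7% and 48.3%, AAGATGG, the core of YY1 sites, in 12.7% and 7.11%, and TATAAA in 7.94% and 14.0%. Members with CCGGAA had a median of 0.30 and members without it 0.31 under the ZSCAN5A siRNAs, and 0.24 and 0.25 under si1. The medians with and without GGGCGG were 0.30 and 0.31, and 0.22 and 0.25 under si1. The 8 members with AAGATGG had a median of 0.39, against 0.30 in the 55 without, and under si1 they had 0.19 against 0.25. Among these 8 are RPL13A and RPL21, whose own rows share a locus with another row, as described above. For the 5 members with TATAAA the medians were 0.32, against 0.30 in the others, and 0.19 against 0.25. The 27 members with a snoRNA row inside their locus had medians of 0.31 with si4 and si5 and 0.21 with si1, and the 52 others 0.31 and 0.25. The members were spread over 21 chromosomes, with 12 on chromosome 19 and 8 on chromosome 3.

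Transcript length moved with the ratio across the other genes. Genes whose canonical transcript was at most 750 bases long had a median log2 ratio of 0.19 with si4 and si5 and 0.19 with si1 (294 and 285 genes), and those over 6000 bases had -0.12 and -0.12. Ribosomal protein genes are short, with a median canonical length of 827 bases, but the longest canonical transcript among them had 7573. Whether the mRNA sequenced had its canonical length was not checked, so the length classes and the correction below rest on the annotation. In the shortest class 35 members had medians of 0.31 and 0.25, and from 750 to 1500 bases 25 members had 0.31 and 0.20, where the other genes had 0.13 and 0.13. Abundance also moved with it: 112 other genes above 300 FPKM in the control had medians of 0.20 (99 higher) and 0.21 (95 higher). After the median of all genes of similar length was taken away, the members' median was 0.17 with si4 and si5 (72 of 78 higher) and 0.095 with si1 (64 of 78 higher). By construction, as many of all genes lie above the median of their length class as below it. Under si1 the members' median of 0.24 stood beside 0.21 for these other abundant genes. What part length and abundance had in the values of the members was not tested.

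**Figure D5:**
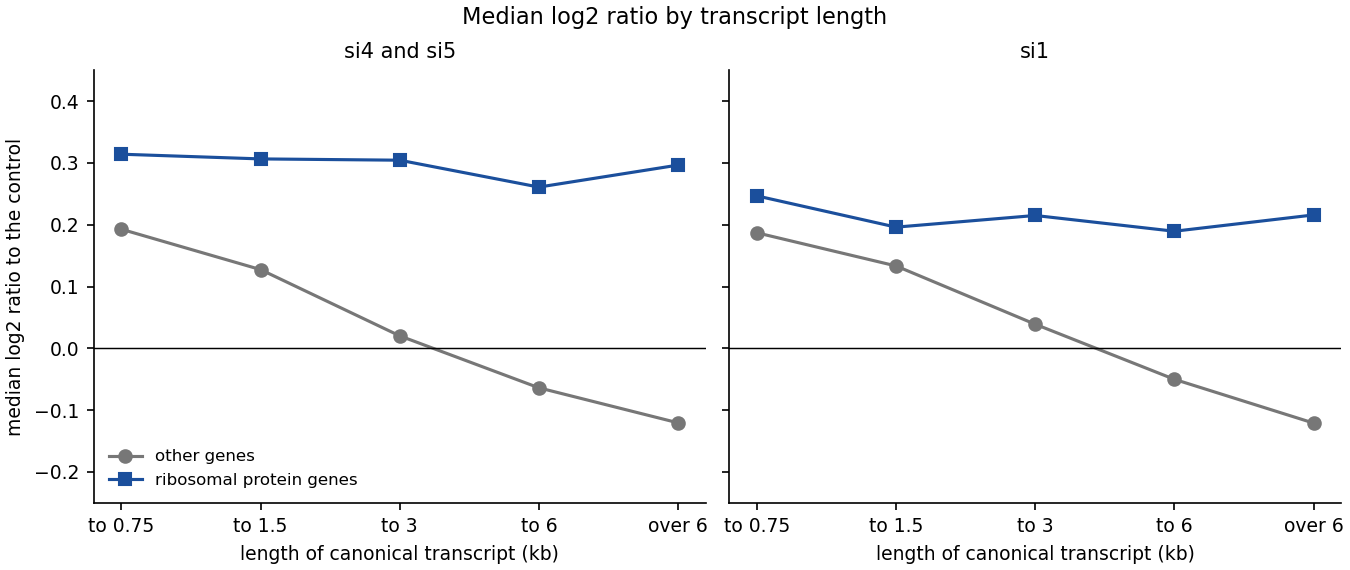
Median log2 ratio to the control by length of the canonical transcript, for ribosomal protein genes (squares) and other genes (circles), with si4 and si5 on the left and si1 on the right. Other genes go from 0.19 in the shortest class to -0.12 in the longest, and the ribosomal protein genes stay between 0.19 and 0.31. The classes above 3 kb hold 3 of these genes each. They are placed there by annotated lengths, which were not checked against the mRNA sequenced.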

How the data were processed

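RNA of 4 HEK-293 cultures was sequenced, 1 library for each siRNA, the scrambled one included. The authors deposited FPKM values per gene, fragments normalized to transcript length and to the number of mapped fragments, for all libraries in 1 table; per the labels, CASAVA 1.8.2, Trimmomatic 0.30, TopHat2 2.1.0, Cufflinks 2.2.1 and hg19 were used. The labels name a TruSeq stranded mRNA kit and the methods a KAPA stranded mRNA kit, and the setting used for strand is not given in the sources used here. Reads that fit several copies are divided by Cufflinks, which bears on genes with many pseudogenes. The FPKM sums were 546239 (si4), 539502 (si5), 537181 (si1) and 488036 (control). Shares of the sum were taken after the repeated row was removed.

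Counts were not used here. Depth was estimated from genes above 0 and under 0.1 FPKM in every library, whose values stand in whole-number proportion (tolerance 0.2%) for 72.7% of 1745 genes. This gave about 53700000 fragments for the control and 58700000, 83000000 and 54600000 for si4, si5 and si1. The methods of the study state a narrow range of reads per sample, which the estimate for si5 exceeds, so fragment numbers given here are approximate.

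The mean FPKM of si4 and si5, which the study also took as a group, and the FPKM of si1 were divided by the control, for genes of at least 1 FPKM in a library of the comparison and above 0 on both sides, with no pseudocount. The limits of 1 FPKM and 1.5-fold are those of the study for ZSCAN5B. For ZSCAN5A it named the 1.5-fold limit together with an adjusted p, which was not used here. The named genes are the members highest and lowest in the control and in each comparison, those past 1.5-fold, those on which si4 and si5 differed most, those under 1 FPKM, paralogue pairs, the stalk, RPL5, RPL11, RPS6, RPS19 and RPSA; of other lists the 2 highest and 2 lowest genes were eligible. HNRNPK, LARP1, GNB2L1, MTOR, RPTOR, AKT1S1, EIF4EBP1 and the genes with seed matches were named after their values were seen. Members and lists were chosen with earlier results of these data known. Lengths and pseudogene names came from GENCODE (GRCh37, 85.9% of genes of at least 1 FPKM matched), start sites from RefSeq (GRCh38.p14). A limma fit (3.58.1) on log2(FPKM + 1), in which si4 and si5 give the only spread, was an alternative, tested on simulated data. Scripts ran in Python 3.11.15 with NumPy 2.4.6 and pandas 2.3.3, and in R. No replicate of the control exists, so errors given are the spread over genes or between si4 and si5. Single values of some genes are not reported here, and 3 measured members are left out of the plots of single genes.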

Additional observations from a re-analysis of the deposited data

Results flagged for a closer look

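For 4 ribosomal protein genes the FPKM was higher than the control in both ZSCAN5A siRNA libraries and lower than it under si1, which is 5.06% of the 79 genes and near the 4.58% of all genes with that pattern; the difference was not tested, since there is 1 library for each siRNA. Relative to si4 and si5 averaged, the log2 ratio of si1 was -0.4453 for RPL13A, -0.2774 for RPL28, -0.1346 for RPLP1 and -0.0611 for RPLP2. For RPLP2 the distance of si1 from the control, -0.002, was smaller than the difference of 0.03 between si4 and si5, and under median-ratio scaling it was above the control. For RPL13A the row RPL13AP5 on the same locus was higher than the control with si1 by 0.22, and the sum of both by 0.16. RPL28 shares its locus with no such row.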

How the results depend on the processing

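The median log2 ratio stayed above 0 under every alternative tried. With si4 and si5 it was 0.153 when FPKM was divided by its sum, 0.223 when the sum left out ribosomal protein genes, 0.320 with median-ratio and 0.297 with upper-quartile scaling, and 0.173 after correction for transcript length; a lone siRNA gave 0.301 to 0.312. With si1 the values were 0.0977, 0.134 (both sums), 0.220 (upper quartile), 0.095 (length), 0.245 without paralogues and members sharing a locus, and 0.245 with RPL13A and RPL21 summed with the other row of their locus, an alternative chosen after seeing the data. RPL minus RPS, 0.00805 with si4 and si5, turned to -0.000244 without paralogues and shared loci and to -0.0133 after length correction (0.00153 to 0.0118 with a lone siRNA). With si1 it was -0.0388, and -0.0198 without paralogues, -0.0197 with summed loci, -0.0293 without RPL21 (also chosen after seeing the data) and 0.0116 after length correction. The cause was not tested.

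The 1 gene past 1.5-fold with si4 and si5, RPL21, made the count 0 without paralogues and shared loci, with summed loci, without RPL21 and with si4 alone (a lone siRNA gave 0 to 1); at 1.2-fold it was 56 and at 2-fold 0. For si1 it was 25 at 1.2-fold and 1 with no FPKM limit, RPL3L. limma called 0 members (adjusted p from 0.393 to 0.795, where 10 of 13043 genes were called) and 52 of 79 had an unadjusted p under 0.05, against 12.4% of all genes; its spread comes from si4 and si5 alone, and the lone control is assumed to vary like them. Of the genes named, RPL22 turned to -0.0369 when FPKM was divided by its sum and to -0.00949 with si4 alone (0.231 with si5 alone); divided by the sum, RPL36 turned to -0.0196 and -0.0528 (si1), RPLP1 to -0.0447, RPLP2 to -0.0949, and with si1 RPL21 to -0.0735, RPL41 to -0.0355 and RPS15 to -0.004. With the sum of other genes RPLP2 turned to -0.0251 and, with si1, RPL21 to -0.0368 and RPL36 to -0.0161; with median-ratio scaling RPLP2 turned to 0.00308 with si1. No paired analysis was possible because the groups compared share fewer than 2 replicate numbers. 1 control library limits all values.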
